A study of Micropterus salmoides with 45 samples.

Results

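Liver microRNAs (miRNAs) of largemouth bass (Micropterus salmoides) held for 12 h in severe hypoxia were compared with those of fish held for the same 12 h at normal oxygen. The comparison rests on 6 of the 45 small-RNA libraries of the study, 3 of severe hypoxia and 3 of control, chosen by their labels. Fish in severe hypoxia had 1.2 ± 0.2 mg/L of dissolved oxygen, and control fish had 7.0 ± 0.2 mg/L. A moderate hypoxia group at 3.0 ± 0.2 mg/L, with 3 libraries at 12 h, and the severe and control livers of 0, 4, 8 and 24 h (24 libraries) were used to show where the 12 h comparison differs. All 45 libraries entered 1 fit, so they also set the spread behind each error and adjusted p. All fish were 6 months old, were kept at 20 °C and were fasted. Each oxygen level had 3 tanks of 30 fish, livers of 5 fish were collected per group, and 0 h marks the end of the lowering of oxygen with nitrogen, which took up to 2 h. The samples' own labels and the series title name this species and these oxygen levels, whereas the series' short design text names common carp and temperature groups. The sample labels were followed here, and the mismatch bears on the species and treatment behind every value. No label says which tank or fish a library came from. The p-values therefore cover the spread from library to library alone, and tank cannot be told apart from oxygen level.

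miRNAs are short RNAs that guide repressor complexes to messenger RNAs. A hairpin precursor is cut into a 5p and a 3p arm, of which one is usually kept and the other mostly degraded. In low oxygen the hypoxia-inducible factor switches on miR-210 in mammals, where it represses genes of mitochondrial metabolism, and the miR-462 and miR-731 cluster responds to low oxygen in several fish. In vertebrate liver, miR-122 is the miRNA typical of hepatocytes and acts on lipid metabolism. In bulk liver, fewer cells of a type and less RNA per cell cannot be told apart.

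Values are in rpm, read counts scaled to a common depth, for 266 named miRNAs, 139 of the 5p arm and 127 of the 3p arm. In severe hypoxia at 12 h, 241 miRNAs were above 0, and in 205 of them 1 of the 3 values equalled the mean of the other 2. In control 243 were above 0, with 211 such sets. All 3 values were identical for 30 miRNAs in severe hypoxia and 23 in control. A value of either kind carries no information of its own and is called averaged below, so that most groups hold 2 measured values per miRNA. From the step between values, the depth was 1619391, 2377095 and 4248269 reads in severe libraries 1, 2 and 3, and 2834764, 2465578 and 2312875 reads in control libraries 1, 2 and 3. At these depths 98.1% to 100% of the values that were not averaged came out as whole reads, within 0.00505 rpm. Each depth was inferred by seeking a high share of whole reads, so this share is no check of the depth. Of the sets counted as identical, 1 in severe hypoxia and 3 in control held 2 or 3 values that were whole reads. The listed miRNAs summed to 687167 ± 42945 rpm in severe hypoxia and 791537 ± 14658 rpm in control (SD, n = 3 each, averaged values included). The severe sums were lower in 3 of 3 libraries, with an exact two-sided permutation p of 0.1, the smallest that 3 against 3 libraries can give.

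On the deposited scale more miRNAs were lower than higher in severe hypoxia at 12 h. Of 213 miRNAs tested with limma, 69 (32.4%) were called at an adjusted p under 0.05, 21 higher (9.86%) and 48 lower (22.5%), with a median log2 difference of -0.23 over all tested. Differences are on the log2(rpm + 1) scale, severe hypoxia minus control. The called rises spanned log2 0.79 to 7.09 with a median of 1.37, and 18 of them exceeded 2-fold. The called falls spanned log2 -0.59 to -2.89 with a median of -1.11, and 32 exceeded 2-fold. Among the 192 miRNAs with at least 2 measured values in each group, 65 (33.9%) were called, 19 higher (9.9%) and 46 lower (24%). The split into rises and falls depended on scaling. With every library brought to 1 listed total, calls numbered 70 (32.9%), with 28 rises (13.1%), 42 falls (19.7%) and a median of -0.05. When libraries were scaled by their median ratio to the mean library, calls numbered 65 (30.5%), with 33 rises (15.5%), 32 falls (15%) and a median of 0.04. Under all 3 scalings, 53 miRNAs were called in the same direction. A fit on the 6 libraries alone called 72 miRNAs, of which 63 were among the 69 with the same direction. The measured values of the groups did not overlap for 54 miRNAs that were higher in severe hypoxia (25.4% of those tested) and 98 that were lower (46% of those tested). Most groups hold 2 measured values, and 21 tested miRNAs had 1 in a group. With so few values, groups can fail to overlap without a true difference, so a lack of overlap is weak evidence here and below. A limit on every p-value is that no source used here gives the reason for the averaged values. Had they replaced values that lay far off, the spread would be understated, which was not tested.

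**Figure D1:**
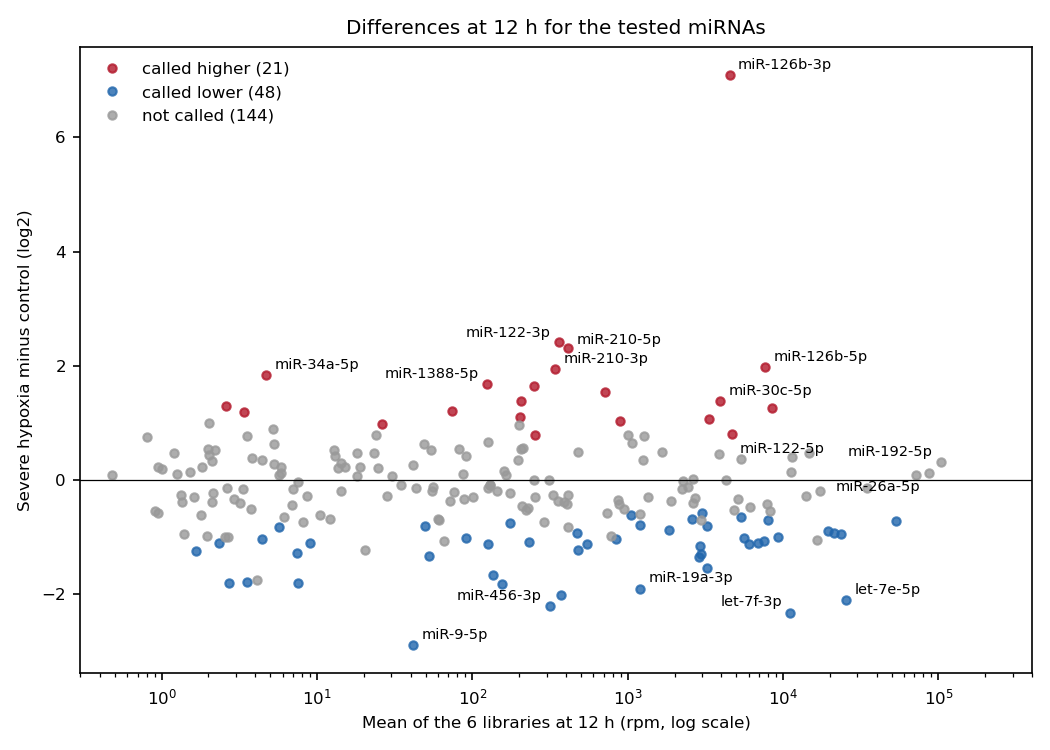
Each point is 1 of the 213 tested miRNAs, with its mean over the 6 libraries in rpm (log scale) on the x axis and its log2 difference, severe hypoxia minus control at 12 h, on the y axis. The 21 miRNAs called higher (red) and 48 called lower (blue) lie over a wide range of abundance, and 144 were not called (grey).

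The plot of differences by abundance shows calls among both rare and abundant miRNAs. Most calls, 18 of the 21 rises and 39 of the 48 falls, had a mean of at least 10 rpm. miR-126b-3p stands above all others at log2 7.08, but its groups hold 1 measured value each.

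Both arms of miR-210, the hypoxia-induced miRNA, rose. miR-210-5p was measured at 879 and 509 rpm in severe libraries 2 and 3, against 111 and 161 rpm in control libraries 2 and 3. Averaged values filled severe library 1 (694 rpm) and control library 1 (136 rpm). The severe and control libraries did not overlap, and severe library 2 was the highest of the 6. The difference was log2 2.31 (SE 0.35, adjusted p = 6.03e-05), or 5.11-fold on the means. For miR-210-3p, severe libraries 2 and 3 held 528 and 558 rpm, against 139 and 142 rpm in control libraries 1 and 3, with averaged values of 543 rpm in severe library 1 and 140.4 rpm in control library 2. Here the libraries of each group lay close together and far from the other group (log2 1.94, SE 0.34, adjusted p = 0.000241).

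The fish hypoxia cluster was not called. miR-462-5p stood at 3296 and 5916 rpm in severe libraries 1 and 2 (averaged 4606 rpm in library 3), against 5822 and 5402 rpm in control libraries 1 and 3 (averaged 5612 rpm in library 2). Severe library 1 lay below the controls and severe library 2 above them, so the groups overlapped (log2 -0.34, SE 0.35, adjusted p = 0.467). miR-731-5p was listed at 0 in all 6 libraries. Of the 3 tested members of the hypoxia list, 2 were higher and 0 lower, both arms of 1 precursor, beside 9.86% higher and 22.5% lower over all tested.

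The 3p arm of miR-122 rose most among miRNAs with at least 2 measured values in each group. miR-122-3p had 589 and 629 rpm in severe libraries 2 and 3, against 107 and 118 rpm in control libraries 1 and 3, and averaged values of 609 rpm in severe library 1 and 113 rpm in control library 2. No measured severe value came near a control value (log2 2.42, SE 0.28, adjusted p = 2.44e-06; 5.40-fold on the means). The main arm moved less. miR-122-5p had 6091 and 5747 rpm in severe libraries 1 and 2, against 3505 and 3317 rpm in control libraries 2 and 3, with averaged values of 5919 rpm in severe library 3 and 3411 rpm in control library 1. The groups did not overlap, but the call was marginal (log2 0.79, SE 0.30, adjusted p = 0.0485) and ended when any 1 of the 6 libraries was left out (adjusted p 0.0526 to 0.161). Severe library 3 and control library 1 held averaged values. Leaving either out kept the difference at log2 0.79 (adjusted p 0.0526 and 0.05525). On the scale of the listed total the same difference was log2 1.04 (adjusted p = 0.00927). In severe hypoxia miR-122-5p averaged 8672, 9922, 6186, 5919 and 8582 rpm at 0, 4, 8, 12 and 24 h. Control averaged 7611, 7782, 11135.5, 3411 and 12387 rpm at the same hours. Both groups were thus lowest at 12 h, with control far below its other hours, so the 12 h difference came with a low control level. As a check of the tissue, miR-122-5p made up 0.804% to 0.927% of the listed total in severe hypoxia and 0.416% to 0.452% in control, below miR-192-5p, another miRNA of liver and gut, at 14.4% to 18.2% in severe hypoxia and 11.04% to 11.83% in control.

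Of the other liver-enriched miRNAs, some fell and none rose on the deposited scale. Of 11 tested, 2 were higher (both arms of miR-122) and 4 lower, with a median of -0.55, beside 9.86% higher, 22.5% lower and a median of -0.23 over all tested. With either rescaling 3 were higher, miR-101a-5p being added (adjusted p = 0.0372 on the listed total and 0.0220 by the median ratio), and 3 lower. miR-148-3p, which acts on cholesterol uptake in mammalian liver, had 3166 and 4431 rpm in severe libraries 1 and 2 (averaged 3799 rpm in library 3), against 7869.6 and 8483 rpm in control libraries 2 and 3 (averaged 8176 rpm in library 1). Both measured severe values lay below both measured control values (log2 -1.12, SE 0.24, adjusted p = 0.00125), and its 5p arm was lower as well (miR-148-5p, log2 -0.59, adjusted p = 0.0216). The call of miR-148-5p ended on the scale of the listed total (adjusted p = 0.0719), with scaling by the median ratio (0.184), and without severe library 2 (0.178), control library 1 (0.107) or control library 3 (0.0646). miR-194a-5p, made together with miR-192 in vertebrates, had 4131 and 5736 rpm in severe libraries 1 and 2 (averaged 4934 rpm), against 10098 and 10359 rpm in control libraries 2 and 3 (averaged 10228 rpm). Both measured severe values lay below the measured control values (log2 -1.07, adjusted p = 0.00647), a call that ended without severe library 1 (log2 -0.83, adjusted p = 0.0791). miR-101b-5p was the remaining liver-enriched miRNA that fell (log2 -0.87, SE 0.17, adjusted p = 0.000598). On the metabolism list, 2 of 8 tested were higher (the arms of miR-122) and 1 lower, miR-107a-5p. That miRNA, of a family linked to insulin sensitivity in mice, was listed at only 0.940 to 1.24 rpm in severe hypoxia and 2.47 to 4.76 rpm in control (log2 -1.10, adjusted p = 0.00794). Without control library 3 its difference was -0.74 (adjusted p = 0.148), and without severe library 3 the adjusted p was 0.0543.

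The let-7 family, miRNAs of differentiated cells that restrain growth genes, fell along its 5p arms. Of 17 tested members 8 were lower and 1 higher, with a median of -0.60. Among the 5p arms 7 of 8 were lower (median -1.03), set beside 28 of 113 among all tested 5p arms (median -0.27). Among the 3p arms 1 of 9 was lower and 1 higher (median 0.14), set beside 20 lower and 11 higher of 100 among all tested 3p arms (median -0.21). let-7e-5p had 11261 and 8118 rpm in severe libraries 1 and 3, against 40739.6 and 41413 rpm in control libraries 1 and 2, with averaged values of 9689.6 rpm in severe library 2 and 41076 rpm in control library 3. The measured severe values were far below the measured control values (log2 -2.10, SE 0.24, adjusted p = 2.44e-06). Its share of the listed total was 1.10% to 1.71% in severe hypoxia, against 5.08% to 5.35% in control.

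let-7a-5p, the most abundant of the family, had 42669 and 38039 rpm in severe libraries 2 and 3, against 70215 and 62285 rpm in control libraries 1 and 2, with averaged values of 40354 rpm in severe library 1 and 66250.1 rpm in control library 3. The groups did not overlap (log2 -0.71, SE 0.20, adjusted p = 0.00689). The call ended without severe library 3 (adjusted p = 0.0536), without control library 1 (0.0654) and with scaling by the median ratio (0.0676). let-7j-5p (log2 -1.55), let-7i-5p (-1.13), let-7c-5p (-1.04), let-7h-5p (-1.01) and let-7g-5p (-1.005) were also lower. The call of let-7c-5p ended with scaling by the median ratio (adjusted p = 0.0747) and without severe library 1 (0.0632). let-7d-5p was the tested 5p arm that was not called (log2 -0.60, adjusted p = 0.163). The 3p arms that were called went opposite ways. let-7f-3p had 3397 and 4016 rpm in severe libraries 1 and 3 (averaged 3706 rpm in library 2), against 17163 and 20037 rpm in control libraries 1 and 2 (averaged 18600.2 rpm in library 3), a fall of log2 -2.33 (SE 0.37, adjusted p = 7.91e-05) with no overlap. let-7a-3p had 316 and 272 rpm in severe libraries 2 and 3 (averaged 294 rpm in library 1), against 96.7 and 131 rpm in control libraries 1 and 3 (averaged 114 rpm in library 2). Both measured severe values lay above the controls (log2 1.37, SE 0.29, adjusted p = 0.00122). Members of the family differ by few bases, and no source used here tells how reads that match several members were counted.

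**Figure D2:**
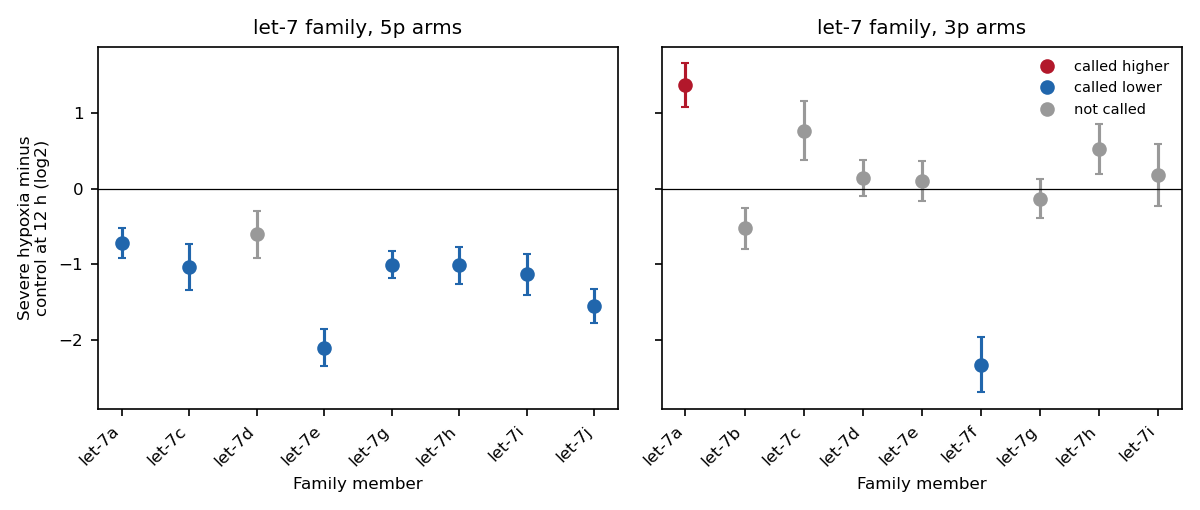
Log2 difference at 12 h, severe hypoxia minus control, for the tested let-7 miRNAs, 5p arms on the left and 3p arms on the right, with bars of 1 SE from the fit. The 5p arms lie between -2.10 and -0.60, while the 3p arms lie on both sides of 0, with let-7f called lower and let-7a called higher.

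In the plot of the let-7 family by arm, the members with a called 5p arm form 1 band below 0 and let-7e lies lowest. The 3p arm of let-7e was not called (log2 0.11, adjusted p = 0.749).

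The tested members of the miR-17 to miR-92 cluster family, which favours proliferation in mammalian cells, were lower or not called. miR-93-5p, also on this list, had no test. It was listed at 0 in all 3 control libraries and at 264 and 393 rpm in severe libraries 2 and 3. Of 15 tested 8 were lower and 0 higher, with a median of -0.61, beside 22.5% lower, 9.86% higher and a median of -0.23 over all tested. The count of lower members was 6 on the scale of the listed total, 5 with scaling by the median ratio, and 5 to 8 when 1 library was left out (5 without control library 1). miR-19a-3p had 442 and 578 rpm in severe libraries 2 and 3 (averaged 510.0 rpm in library 1), against 1953 and 1841 rpm in control libraries 1 and 2 (averaged 1897 rpm in library 3). The control libraries lay far above the severe ones (log2 -1.91, SE 0.22, adjusted p = 2.44e-06). miR-19b-3p was lower too, with 2140.3 and 1523 rpm in severe libraries 1 and 3 (averaged 1832 rpm), against 4258 and 3807 rpm in control libraries 1 and 3 (averaged 4033 rpm). Its groups did not overlap (log2 -1.16, SE 0.20, adjusted p = 0.000243). miR-92a-3p differed among the severe libraries, with 10854, 23717 and 8778 rpm in libraries 1, 2 and 3, all measured, against 25861 and 23059 rpm in control libraries 1 and 3 (averaged 24460 rpm in library 2). Severe library 2 lay within the control range, and the lower severe mean comes from libraries 1 and 3 (log2 -0.90, adjusted p = 0.0188). The call of miR-92a-3p ended without severe library 1 (adjusted p = 0.0791), severe library 3 (0.135), control library 1 (0.119) or control library 3 (0.0604). It also ended on the scale of the listed total (0.0837), with scaling by the median ratio (0.124) and in a fit on the 6 libraries alone (0.0995). miR-92a-3p was singled out after its values were seen. Lower counts stood behind miR-19d-5p (log2 -1.81, adjusted p = 0.000291) and miR-18a-3p (log2 -1.11, adjusted p = 0.00199), which had 1.18 to 6.79 rpm in the severe libraries and 10.9 to 14.3 rpm in the control libraries.

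The miR-30 family, abundant in epithelia, held calls in both directions. Of 7 tested members 2 were higher and 3 lower, beside 9.86% higher and 22.5% lower over all tested. miR-30c-5p had 6447 and 5003 rpm in severe libraries 2 and 3 (averaged 5725 rpm in library 1), against 2142 and 2207 rpm in control libraries 1 and 3 (averaged 2174 rpm in library 2). It was above control in both severe libraries with a measured value (log2 1.38, SE 0.24, adjusted p = 0.000232), as did miR-30b-5p, with 963 and 1171 rpm in severe libraries 2 and 3 (averaged 1067 rpm), against 379 and 354 rpm in control libraries 1 and 3 (averaged 366 rpm; log2 1.53, SE 0.35, adjusted p = 0.00199). miR-30a-3p went the other way, with 62.7 and 66.4 rpm in severe libraries 2 and 3 (averaged 64.5 rpm), against 193 and 222 rpm in control libraries 1 and 3 (averaged 208 rpm). Its groups were well apart (log2 -1.67, SE 0.33, adjusted p = 0.000525). miR-30a-5p (log2 -0.93, adjusted p = 0.00225) and miR-30e-5p (log2 -0.93, adjusted p = 0.0105) fell as well. For miR-30e-5p the severe values were 14738, 14723 and 14731 rpm in libraries 1, 2 and 3. They lay within the 0.1% tolerance, so 1 was kept as measured, although those of libraries 1 and 2 were both whole reads. miR-30e-5p was not called with scaling by the median ratio (adjusted p = 0.112) or without control library 3 (0.0584).

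The miR-23, miR-24 and miR-27 clusters held 2 higher and 0 lower members of 13 tested (median 0.23), near the 9.86% called higher over all tested. Both were of the b cluster, whose miR-27b acts on lipid genes in mouse liver. miR-27b-3p had 4678 and 4415 rpm in severe libraries 2 and 3 (averaged 4547 rpm in library 1), against 2200.3 and 2129 rpm in control libraries 2 and 3 (averaged 2165 rpm in library 1), a rise of log2 1.07 (SE 0.21, adjusted p = 0.000461) with no overlap. miR-23b-3p had 265 and 289 rpm in severe libraries 2 and 3 (averaged 277 rpm), against 119 and 139 rpm in control libraries 2 and 3 (averaged 129 rpm; log2 1.10, adjusted p = 0.0104). The measured severe values of miR-23b-3p were above the measured control values, but the call ended without severe library 3 (adjusted p = 0.0587) or control library 2 (0.0772). After either rescaling 4 members of these clusters were called higher, beside 13.1% (listed total) and 15.5% (median ratio) over all tested.

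Lists of stress and inflammation came next. miR-34a-5p, a target of p53 in mammals, had 9.25 and 6.59 rpm in severe libraries 2 and 3 (averaged 7.92 rpm in library 1), against 1.76 and 1.22 rpm in control libraries 1 and 2 (averaged 1.49 rpm in library 3). The severe values, 22 and 28 implied reads, were all above the control values, 5 and 3 implied reads (log2 1.83, SE 0.35, adjusted p = 0.000444). It was the 1 called member of 7 tested on the p53 list (0 lower), beside 9.86% called higher over all tested. On the scale of the listed total 2 were higher, beside 13.1% over all tested. With 7 members tested, the share of this list rests on few miRNAs. miR-146a-5p, induced by the inflammatory factor NF-kappaB in mammals, had 3611 and 22654 rpm in severe libraries 1 and 3 (averaged 13133 rpm in library 2), against 3936 and 3632 rpm in control libraries 2 and 3 (averaged 3784 rpm in library 1). Severe library 3 alone was high, and severe library 1 lay just below the controls. The call (log2 1.26, SE 0.46, adjusted p = 0.0406) therefore rests on severe library 3: without it the difference was -0.07 (adjusted p = 0.860), and without severe library 1 it was 2.58. The call also ended without control library 2 (adjusted p = 0.106) or control library 3 (0.148), and in a fit on the 6 libraries alone (0.217). It ended without severe library 2 as well (adjusted p = 0.0501), but that library held an averaged value, so the difference stayed at log2 1.26.

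miR-21-5p, raised in inflamed and fibrotic mammalian liver, was instead lower, at 16613 and 15377 rpm in severe libraries 2 and 3 (averaged 15995 rpm), against 29201 and 32560.3 rpm in control libraries 1 and 3 (averaged 30881 rpm). The measured severe values stood below the measured control values (log2 -0.95, SE 0.23, adjusted p = 0.00333). Of the 5 tested members of the inflammation list 1 was higher and 1 lower, beside 9.86% higher and 22.5% lower over all tested. miR-155-5p, which marks activated lymphocytes and macrophages, was not called (log2 0.23, adjusted p = 0.685).

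The endothelium list had 2 higher and 2 lower of 7 tested (9.86% higher and 22.5% lower over all tested), and summed to 45121 to 50189 rpm in severe hypoxia and 22842 to 23922 rpm in control. Without both arms of miR-126b and without miR-221-5p, which was listed at 0 in control, the list summed to 20628 to 25267 rpm in severe hypoxia and 19675 to 20755 rpm in control. The rises were the arms of miR-126b, a miRNA of endothelial cells. miR-126b-3p was listed at 8994 rpm in all 3 severe libraries and at 65.3 rpm in all 3 control libraries, so each group holds 1 measured value (log2 7.08, SE 1.26, adjusted p = 0.000291). miR-126b-5p was listed likewise at 12166 rpm in severe hypoxia and 3101 rpm in control (log2 1.97, SE 0.50, adjusted p = 0.00536). A test with 1 value per group takes its spread from the other groups. The sister miRNA miR-126a-3p was not called, with 13008 ± 1223 rpm in severe hypoxia and 9823 ± 1008 rpm in control (SD, n = 2 each; log2 0.41, adjusted p = 0.383). The falls were the arms of miR-222a, which restrains vessel growth in mammalian endothelium. miR-222a-3p had 2128 and 1330.4 rpm in severe libraries 1 and 3 (averaged 1729 rpm), against 3482 and 4896 rpm in control libraries 1 and 3 (averaged 4189 rpm). Its groups did not overlap (log2 -1.29, SE 0.35, adjusted p = 0.00665), but the call ended without severe library 3 (log2 -0.96, adjusted p = 0.0958) or control library 3 (log2 -1.05, adjusted p = 0.0798). miR-222a-5p fell at log2 -1.22 (SE 0.24, adjusted p = 0.000525).

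Markers of other cell types were read as lists. The neuron list had 4 lower and 1 higher of 11 tested (median -0.63), not far from the 22.5% lower and 9.86% higher over all tested, and its summed level was 1659 to 1781 rpm in the severe libraries and 4070.0 to 4478 rpm in the control libraries. Most of that sum was miR-128-3p, a brain-enriched miRNA that was also abundant in these livers, with 1658 and 1548 rpm in severe libraries 1 and 3 (averaged 1603 rpm), against 4324 and 3909.8 rpm in control libraries 1 and 3 (averaged 4117 rpm; log2 -1.36, SE 0.26, adjusted p = 0.000444). miR-9-5p, a miRNA of neurons and their precursors, had the lowest difference of the tested miRNAs. It stood at 13.0, 9.45 and 5.88 rpm in severe libraries 1, 2 and 3, against 71.6 and 75.2 rpm in control libraries 1 and 3 (averaged 73.4 rpm in library 2). The severe value of library 2 lies close to the mean of the other 2 and is no whole number of reads. Every severe value was far below every control value (log2 -2.89, SE 0.43, adjusted p = 4.53e-05). miR-138-5p (log2 -1.79) and miR-153a-3p (log2 -1.03) were lower, all under 10 rpm, and the last was not called without control library 2 (log2 -0.91, adjusted p = 0.0774) or with scaling by the median ratio (-0.80, 0.0649). The higher member was miR-218b-5p, also low, with 5.47 and 4.71 rpm in severe libraries 2 and 3, against 1.62 and 1.73 rpm in control libraries 2 and 3. Of this list 4 members were listed at 0 in severe hypoxia and 1 in control. The member at 0 in control was miR-218a-3p, listed at 33.4 rpm in all 3 severe libraries. The main neuronal marker, miR-124-3p, was listed at 0 in severe hypoxia and at 0.860 rpm in control. The part of other cells in these differences was not tested.

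The other marker lists held 0 or 1 called member each, beside 9.86% higher and 22.5% lower over all tested. None of the 2 tested erythrocyte markers was called by limma (1 at an unadjusted p under 0.05, miR-144-5p at log2 -0.99), nor of the 2 muscle markers or the 6 leukocyte markers (0 at an unadjusted p under 0.05 in each). Of the leukocyte markers, miR-142a-3p and miR-142b-3p had identical values in each of the 6 libraries, so the list holds 5 distinct measurements here. With that pair counted once, the summed leukocyte level was 1674 to 3312 rpm in severe hypoxia and 2695 to 3459 rpm in control. The erythrocyte level was 1807 to 1995 rpm in severe hypoxia and 1652 to 2658 rpm in control. The muscle level was 16.7 to 22.0 rpm in severe hypoxia and 26.5 to 40.5 rpm in control. All list sums include averaged values. Of the muscle markers, miR-133a-3p overlapped between the groups, and miR-499-5p stood at 15.2 rpm in control library 1 but 0.410 rpm in control library 2. Of 8 stromal markers, which summed to 30914 to 41482 rpm in severe hypoxia and 38943 to 40572 rpm in control, 1 was higher. This was miR-145-3p of smooth muscle, with 84.6 and 125 rpm in severe libraries 1 and 2 (averaged 105 rpm), against 46.2 and 41.5 rpm in control libraries 2 and 3 (averaged 43.9 rpm; log2 1.21, adjusted p = 0.00395). That call ended without severe library 2 (log2 0.93, adjusted p = 0.0680). With scaling by the median ratio 4 stromal markers were higher, miR-143-5p, miR-145-5p, miR-145-3p and miR-199-5p, beside 15.5% over all tested on that scale. The abundant miR-199-3p went the other way without a call (deposited scale, log2 -1.05, adjusted p = 0.1625 by limma). It had 9012 and 12819 rpm in severe libraries 1 and 3, against 23080 and 21424 rpm in control libraries 2 and 3. Of 11 epithelium markers 1 was higher, miR-141-3p of the miR-200 family, and the list summed to 2610.2 to 3081 rpm in severe hypoxia and 1956 to 2153 rpm in control. It had 240.2 and 525 rpm in severe libraries 2 and 3 (averaged 382 rpm), against 105 and 121 rpm in control libraries 2 and 3 (averaged 113 rpm). The severe libraries were all above the controls but far from each other (log2 1.65, SE 0.41, adjusted p = 0.00348), and without severe library 3 the call ended (log2 1.09, adjusted p = 0.0839). Of 6 pancreas markers, which summed to 269 to 337 rpm in severe hypoxia and 429 to 560.2 rpm in control, 1 was lower, miR-216b-5p (log2 -1.12, adjusted p = 0.0244), a call that ended without severe library 2 (log2 -0.73, adjusted p = 0.237), without control library 1 (adjusted p = 0.148), on the scale of the listed total (0.0861) and with scaling by the median ratio (0.102).

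Of the remaining groups, the Hox-cluster miRNAs, which lie among the genes of body axis patterning, had 3 lower of 7 tested, all miR-10, beside 22.5% lower over all tested. With scaling by the median ratio 0 were lower and 1 was higher, miR-196a-5p (log2 1.13, adjusted p = 0.0188 by limma), which was also called on the scale of the listed total (1.06, 0.0196) but not on the deposited scale (0.89, 0.0659). miR-10a-5p had 159.9 and 129.6 rpm in severe libraries 1 and 2 (averaged 145 rpm), against 699 and 494 rpm in control libraries 1 and 2 (averaged 597 rpm). The groups were far apart, but the spread across the whole fit was wide (log2 -2.02, SE 0.67, adjusted p = 0.0216), and the call ended without severe library 1 (adjusted p = 0.0568), severe library 2 (0.111) or control library 1 (0.125), and with scaling by the median ratio (0.0565). miR-10c-5p (log2 -0.70, adjusted p = 0.00153) and miR-10b-5p (log2 -0.79, adjusted p = 0.0105) were lower, and neither was called with scaling by the median ratio (adjusted p 0.0553 and 0.104). miR-10b-5p also lost its call on the scale of the listed total (0.0707), without severe library 2 (0.1097) and without control library 2 (0.154). The miR-181 family had 1 lower of 3 tested, miR-181b-5p (log2 -1.11, adjusted p = 0.000465), beside 22.5% lower over all tested. Its member miR-181c-5p had no test, being listed at 0 in control and at 191 and 152 rpm in severe libraries 2 and 3. The miR-99, miR-100 and miR-125 families had 1 lower of 8, beside the same 22.5%. This was miR-125b-3p (log2 -0.83, adjusted p = 0.0105), at 3.09 to 4.63 rpm in severe hypoxia and 7.35 to 7.76 rpm in control. It was not called on the scale of the listed total (adjusted p = 0.0661), with scaling by the median ratio (0.0820), in a fit on the 6 libraries alone (0.0879), without severe library 1 (0.1255) or without control library 1 (0.0610). The miR-183 cluster had 0 called by limma of 2 tested, both with an unadjusted p under 0.05, beside 32.4% called over all tested.

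Several of the largest differences belong to miRNAs outside these lists. miR-1388-5p had 157 and 223 rpm in severe libraries 2 and 3 (averaged 190.2 rpm), against 48.3 and 69.6 rpm in control libraries 2 and 3 (averaged 58.9 rpm), a rise with no overlap (log2 1.68, SE 0.29, adjusted p = 0.000232). miR-338-3p, a brain-enriched miRNA in mammals, had 1146 and 1241 rpm in severe libraries 2 and 3 (averaged 1193 rpm), against 591 and 582 rpm in control libraries 2 and 3 (averaged 586 rpm; log2 1.02, SE 0.20, adjusted p = 0.000465). For both, the measured severe values exceeded the measured control values. miR-456-3p had 145 and 84.3 rpm in severe libraries 1 and 3 (averaged 115 rpm), against 507 and 524 rpm in control libraries 1 and 3 (averaged 515 rpm; log2 -2.21, SE 0.33, adjusted p = 4.53e-05). miR-737-5p had 96.3 and 45.9 rpm in severe libraries 1 and 2 (averaged 71.1 rpm), against 238 and 240.0 rpm in control libraries 2 and 3 (averaged 239 rpm; log2 -1.83, SE 0.33, adjusted p = 0.000304). In both falls the control libraries were near equal and the severe libraries spread wider. miR-2188-3p, at 24.1 and 33.0 rpm in severe libraries 1 and 3 (averaged 28.5 rpm), against 101 and 52.3 rpm in control libraries 2 and 3 (averaged 76.7 rpm), was lower at log2 -1.34 (adjusted p = 0.00275). Its call ended without control library 2 (log2 -0.87, adjusted p = 0.0774).

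**Figure D3:**
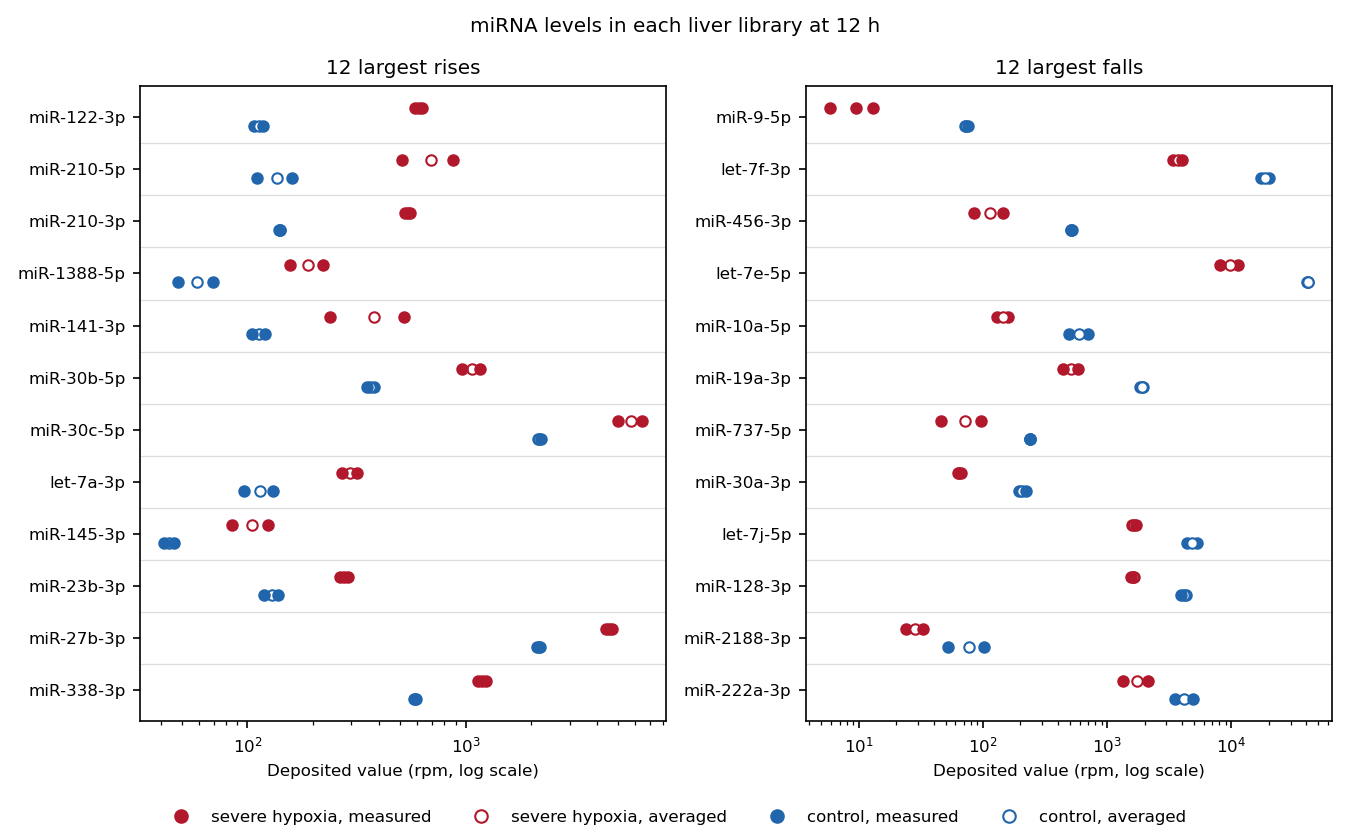
Deposited level in rpm (log scale) of the 12 largest called rises (left) and the 12 largest called falls (right) with a mean of at least 10 rpm, 1 point per library, severe hypoxia in red above control in blue. Filled points are measured and open points averaged. Within each of these 24 miRNAs the severe and control libraries do not overlap, which was a condition for being shown.

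In the plot of values by library, most groups are narrow against the gap between them. The choice of these miRNAs by call, size of difference and lack of overlap favours such a gap. Open points add no information on the spread. Wide severe groups are seen for miR-9-5p, miR-141-3p and miR-737-5p, and a wide control pair for miR-2188-3p.

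Calls were compared between the arms of a precursor. Among 67 precursors with both arms tested, both arms were higher for 3 (miR-122, miR-210 and miR-126b) and both lower for 5 (miR-148, miR-18a, miR-19d, miR-222a and miR-30a). In 15 only the 5p arm was called, in 9 only the 3p arm, and in 32 neither. Both arms were called in opposite directions for 3 precursors, let-7a, miR-130c and miR-301a, which were singled out after their values were seen. miR-301a-5p had only 5.89 and 2.35 rpm in severe libraries 2 and 3, against 0.41 and 1.73 rpm in control libraries 2 and 3. miR-130c-5p had 4.94 and 3.06 rpm in severe libraries 1 and 3, against 10.6 and 11.2 rpm in control libraries 1 and 3. In a fit on the 6 libraries alone miR-301a-5p was not called (adjusted p = 0.06575). For miR-130c and miR-301a the call of either arm ended without 1 or more single libraries (adjusted p 0.0631 to 0.235 for miR-130c and 0.0646 to 0.180 for miR-301a). Arms of the named miRNAs that were not called include miR-9-3p (log2 -0.20, adjusted p = 0.709), miR-1388-3p (-0.23, 0.438), miR-737-3p (0.22, 0.522) and miR-192-3p (-0.58, 0.219). A called arm beside one that was not called is not a test of a difference between the arms, which was not made.

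**Figure D4:**
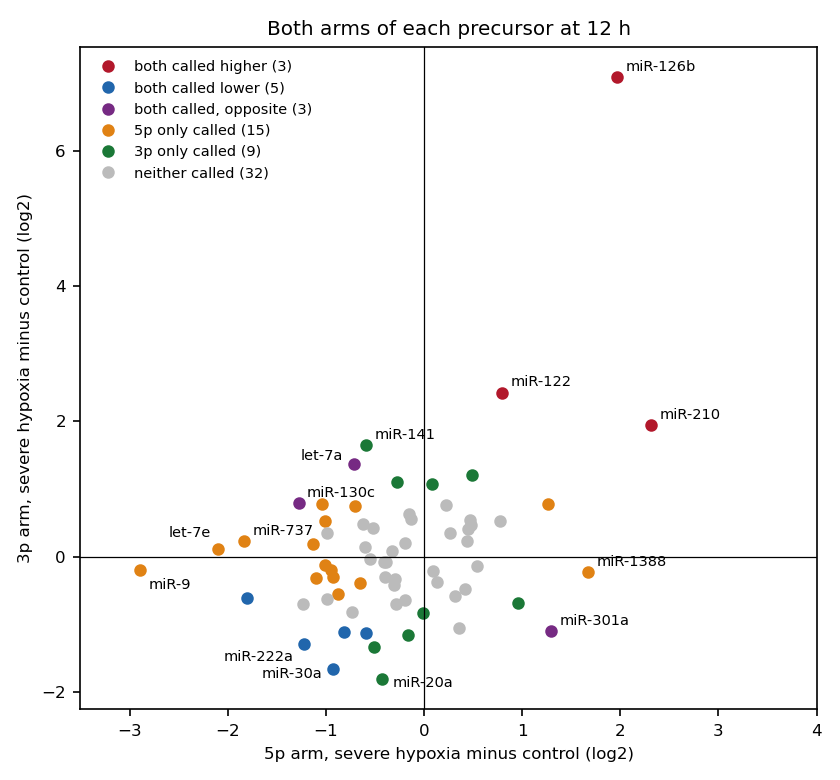
Each point is 1 of 67 precursors, with the log2 difference of its 5p arm on the x axis and of its 3p arm on the y axis, severe hypoxia minus control at 12 h. Colours give which arms were called. miR-210, miR-122 and miR-126b lie in the upper right, miR-9, let-7e and miR-737 far to the left near 0 on the y axis, and let-7a above 0 and left of 0.

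In the plot of both arms, most precursors cluster around the origin. The points farthest to the left have a 3p arm near 0.

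Of the 5 most abundant miRNAs only let-7a-5p, given above, was called. These 5 together held 48.7% to 52.8% of the listed total in the severe libraries and 42.9% to 44.1% in the control libraries. miR-192-5p had 96506 and 134018 rpm in severe libraries 2 and 3 (averaged 115262 rpm), against 94891, 91592 and 88093 rpm in control libraries 1, 2 and 3 (log2 0.31, SE 0.57, adjusted p = 0.685). The control value 91592 is no whole number of reads. miR-26a-5p had 86741 and 93725 rpm in severe libraries 2 and 3 (averaged 90233 rpm), against 84303 and 81117 rpm in control libraries 2 and 3 (averaged 82709.8 rpm; log2 0.12, SE 0.20, adjusted p = 0.664). The severe libraries lay above the controls for both, by more for miR-192-5p, without a call. miR-181a-5p (log2 0.09, adjusted p = 0.749) and miR-22a-3p (log2 -0.14, adjusted p = 0.706) overlapped between groups, and the last changed sign with scaling (0.039 on the scale of the listed total).

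The difference at 12 h was set against the mean of the same difference at 0, 4, 8 and 24 h. The listed miRNAs summed to 524255 to 539699 rpm in severe hypoxia and 300084 to 359347 rpm in control at 24 h, the lowest sums of either group, so values of that hour depend most on the scale. Of 201 miRNAs tested, 60 (29.9%) were called, 18 (8.96%) with a more positive and 42 (20.9%) with a more negative difference at 12 h (median -0.26). On the scale of the listed total 53 (26.4%) were called, 23 more positive and 30 more negative. This contrast contains the 12 h difference itself, so it is no independent look at the miRNAs called at 12 h. For some of these the severe group at 12 h stood apart from the other hours. miR-122-3p averaged 115, 147, 125, 609 and 110.3 rpm in severe hypoxia at 0, 4, 8, 12 and 24 h, and 137, 90.6, 114, 113 and 36.6 rpm in control. Its severe 12 h mean was far above the others, and its control 24 h mean was the lowest. miR-30c-5p averaged 1357, 1399, 1930.1, 5725 and 1162 rpm in severe hypoxia, and 1199.7, 1893, 1899, 2174 and 601 rpm in control, again with the severe 12 h mean apart. For other rises the severe 12 h level was near that of another hour, and control was low. miR-145-3p averaged 94.35, 131, 99.8, 105 and 37.0 rpm in severe hypoxia, and 76.7, 150, 100, 43.9 and 32.15 rpm in control. miR-27b-3p made up 0.522%, 0.638%, 0.585%, 0.664% and 0.337% of the listed total in severe hypoxia, and 0.735%, 0.538%, 0.448%, 0.274% and 0.350% in control.

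For other miRNAs the control group at 12 h was also high in rpm. let-7e-5p averaged 16439.9, 26566, 16034, 9689.6 and 20143 rpm in severe hypoxia at 0, 4, 8, 12 and 24 h, and 17649, 21244, 21016, 41076 and 14664 rpm in control. let-7f-3p averaged 6773, 6814, 7698, 3706 and 9680.5 rpm in severe hypoxia, and 6425, 9933, 10869.7, 18600.2 and 6503 rpm in control. For both, control was highest at 12 h and severe hypoxia lowest at 12 h. As a share of the listed total the control means of 12 and 24 h were closer. let-7e-5p made up 1.42% in severe hypoxia and 5.19% in control at 12 h, and 3.77% in severe hypoxia and 4.43% in control at 24 h. let-7f-3p made up 0.539% in severe hypoxia and 2.35% in control at 12 h, and 1.81% in severe hypoxia and 1.96% in control at 24 h. miR-9-5p averaged 31.0, 13.7, 31.4, 9.43 and 21.3 rpm in severe hypoxia, and 21.6, 22.7, 31.0, 73.4 and 104 rpm in control, where the high control level lasted to 24 h. miR-126b-3p averaged 11518, 10079, 10125, 8994 and 7863 rpm in severe hypoxia, and 9956, 12.3, 17892, 65.3 and 6.38 rpm in control. Its difference thus came with a low control level at 4, 12 and 24 h, while the severe mean stayed between 7863 and 11518 rpm. Its sister miR-126a-3p averaged 11650, 13360, 18.9, 13008 and 7021 rpm in severe hypoxia, and 17135, 11361, 13420, 9823 and 3576 rpm in control. One sister was near 0 while the other was abundant in severe hypoxia at 8 h (miR-126a-3p) and in control at 4, 12 and 24 h (miR-126b-3p). How reads were shared between the sisters was not tested.

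The rise of miR-210 was not shown at every hour. miR-210-3p averaged 175, 549.7, 149, 543 and 138 rpm in severe hypoxia at 0, 4, 8, 12 and 24 h, and 189.9, 339, 255, 140.4 and 94.2 rpm in control. Its severe level was high at 4 and at 12 h, but at 4 h control was also high. miR-210-5p averaged 119.5, 191, 175, 694 and 128 rpm in severe hypoxia, and 205, 216, 204, 136 and 52.8 rpm in control. Its 12 h difference exceeded that of the other hours by log2 2.27 (SE 0.39, adjusted p = 0.000226), and that of miR-210-3p by 1.83 (SE 0.38, adjusted p = 0.00103).

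**Figure D5:**
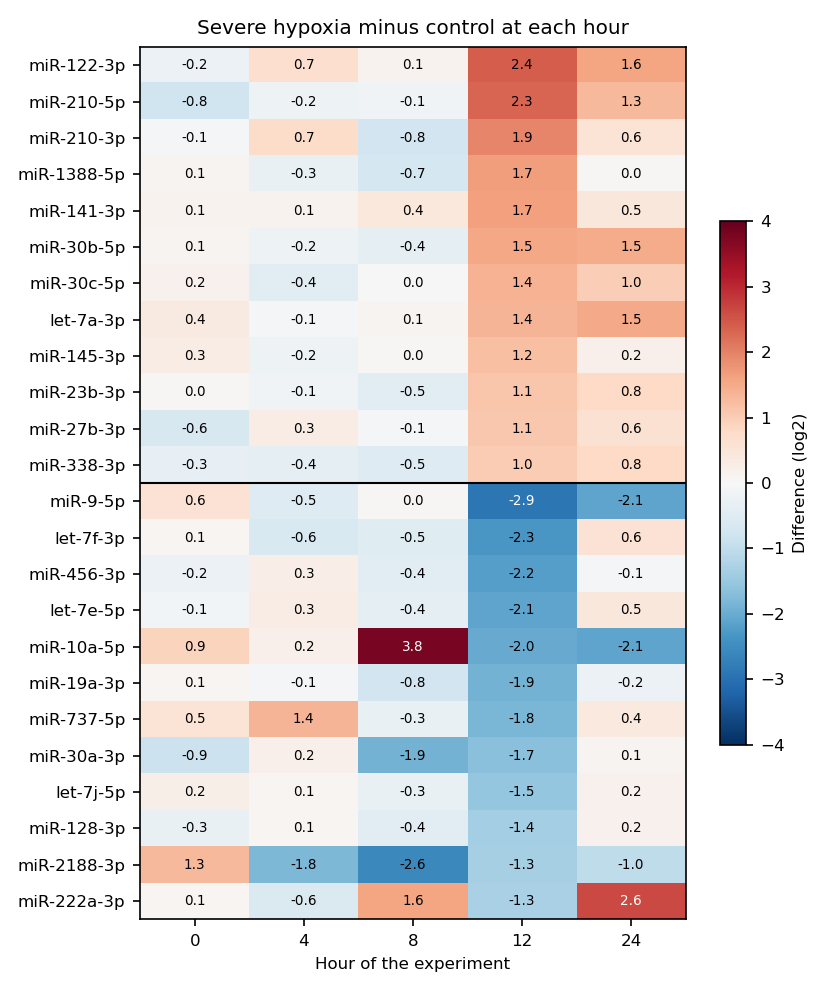
Log2 difference, severe hypoxia minus control, at 0, 4, 8, 12 and 24 h (x axis) for the 12 largest rises (above the line) and 12 largest falls (below it) at 12 h, with colour and number giving the difference. The miRNAs were chosen for their 12 h difference, so the depth of colour in that column was fixed by the choice; at 24 h the rises miR-122-3p, miR-210-5p, miR-30b-5p and let-7a-3p are also above 1 on the deposited scale but 0.60 to 0.89 on that of the listed total, and miR-9-5p and miR-10a-5p are below -2 on both.

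The plot of differences by hour shows most of these miRNAs within 1 of 0 at 0 and 4 h. miR-10a-5p and miR-222a-3p had positive differences at 8 h and negative ones at 12 h. At 24 h miR-222a-3p was again positive, at log2 2.63 on the deposited scale and 1.94 on that of the listed total. The falls of miR-2188-3p and miR-30a-3p were not limited to 12 h, but neither was seen at every hour. On the deposited scale miR-2188-3p had -1.80, -2.57 and -1.02 at 4, 8 and 24 h, but 1.30 at 0 h. miR-30a-3p had -0.86 and -1.90 at 0 and 8 h, but 0.22 and 0.11 at 4 and 24 h. Its 8 h difference was -1.39 on the scale of the listed total.

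Severe hypoxia at 12 h was last compared with moderate hypoxia at 12 h, a comparison without the control libraries. Of 217 miRNAs tested 80 (36.9%) were called, 19 higher (8.76%) and 61 lower (28.1%), with a median of -0.33. The listed miRNAs of moderate hypoxia summed to 942465 ± 16810 rpm (SD, n = 3), more than in the other 2 groups at 12 h. On the scale of the listed total only 41 (18.9%) were called, with 23 rises (10.6%), 18 falls (8.29%) and a median of 0.09. Without moderate library 2 the deposited values gave 40 calls. The comparison shares the severe libraries with that against control. Of the 12 largest rises against control, all 12 were called higher here on both scales, and of the 12 largest falls 11 were called lower on the deposited scale and 9 on both. The falls not called on both were miR-10a-5p, miR-30a-3p and miR-2188-3p. Errors are SD over 2 measured values in each group. let-7e-5p had 9689.6 ± 2222 rpm in severe hypoxia and 49279 ± 3916 rpm in moderate hypoxia (log2 -2.36, adjusted p = 5.48e-07; -1.91 after rescaling). miR-122-3p had 609 ± 28.9 rpm in severe hypoxia and 87.4 ± 7.87 rpm in moderate hypoxia (log2 2.79, adjusted p = 5.48e-07; 3.21 after rescaling). miR-210-3p had 543 ± 20.99 rpm in severe hypoxia and 258 ± 55.2 rpm in moderate hypoxia (log2 1.09, adjusted p = 0.0167; 1.51 after rescaling). miR-30c-5p had 5725 ± 1021 rpm in severe hypoxia and 1349 ± 32.4 rpm in moderate hypoxia (log2 2.07, adjusted p = 2.28e-06). In each of these 4, moderate hypoxia lay nearer to control than to severe hypoxia. On the deposited scale miR-122-5p did not differ between the hypoxia levels by the test (log2 -0.08, SE 0.30, adjusted p = 0.882). It had 5919 ± 243 rpm in severe hypoxia and 6266 ± 685 rpm in moderate hypoxia. The listed total was larger in moderate hypoxia, so this difference depends on the scale.

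A few miRNAs of 10 rpm or more on average were listed at 0 in all 3 libraries of 1 group, which allows no fold. In control these were miR-221-5p, miR-93-5p, miR-181c-5p, miR-26a-3p, miR-200c-3p and miR-218a-3p. miR-221-5p was listed at 3761 and 2904 rpm in severe libraries 2 and 3 (averaged 3333 rpm), and miR-93-5p at 264 and 393 rpm in the same libraries (averaged 328 rpm). miR-181c-5p had 191 and 152 rpm there (averaged 171 rpm), while miR-26a-3p (141 rpm), miR-200c-3p (72.3 rpm) and miR-218a-3p (33.4 rpm) each had 1 value in all 3 severe libraries. Listed at 0 in severe hypoxia were miR-15a-5p, at 457 and 284 rpm in control libraries 1 and 3 (averaged 371 rpm), and miR-458-5p, at 59.6 and 63.6 rpm in control libraries 2 and 3 (averaged 61.6 rpm). In control miR-221-5p was also listed at 0 at 8 h but stood at 2099 rpm at 0 h and 3099.6 rpm at 4 h, so a listed 0 is not read as absence.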

How the data were processed

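Small RNA from liver was sequenced on an Illumina HiSeq instrument, per the labels. The deposited values are rpm per named miRNA, scaled by the authors. Neither aligner, genome build, miRNA annotation nor rpm denominator is stated (not given in the sources used here), and the prefix msa- was dropped from names. All 45 libraries were used, with no column of other samples.

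A value equal to the mean of the other 2 of its group (within 0.0101 rpm or 0.1%) was treated as not measured. Of 3 values identical within that tolerance 1 was kept, and where a group listed a miRNA at 0 throughout it had no value there. Whole reads were recovered from the step between values, one depth per library. Of the averaged values of the 6 libraries at 12 h, 6.10% to 21.5% came out whole. Of the values that were not averaged, 93.8% to 100% came out whole in the 45 libraries. No count model was used.

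The 228 miRNAs that averaged 1 rpm or more across the libraries were fitted on log2(rpm + 1) with limma 3.58.1 in R 4.3.3: 15 groups, measured values only, variances moderated with a trend on abundance, two-sided tests, Benjamini-Hochberg adjustment over all tested miRNAs. The median residual SD was 0.319 log2 with 15 degrees of freedom, and 21 of the 213 miRNAs tested had 1 measured value in a group. The fit was checked on simulated data with a constant spread and 1 value per group missing at random. That check does not cover groups with 1 measured value, or averaged values that replaced values far off. The fold on the means is the ratio of mean measured rpm.

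Named are 12 called rises and 12 called falls, the largest among miRNAs with at least 10 rpm, 2 measured values per group and no overlap, both arms of miR-122, miR-210, miR-462 and miR-731, the 5 most abundant miRNAs, the other arm of each, up to 4 called members per list by adjusted p, and miRNAs listed at 0 in 1 group. Further members of a list were named after their values were seen. The 21 lists go by the number in the miRNA name. Members and lists were chosen with earlier results of these data known. Replicate numbers do not come with a stated pairing. Alternatives were other scalings, pseudocounts and filters, all deposited values, no variance trend, a replicate block, the 12 h libraries alone, and each library left out.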

Additional observations from a re-analysis of the deposited data

Results flagged for a closer look

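For 40 of the 65 named miRNAs with a test, the difference between severe hypoxia and control at 12 h was itself other than the mean of that difference at 0, 4, 8 and 24 h, by a contrast in the same limma fit with an adjusted p under 0.05. Over all 201 miRNAs tested the share was 29.9%. Many of the miRNAs were named for a large 12 h difference, which is part of this contrast, so the higher share among them is set in part by that choice. Values are log2, the 12 h difference minus the mean of the other hours. The excess of the 12 h difference was miR-210-5p 2.27, miR-1388-5p 1.89, miR-122-3p 1.89, miR-210-3p 1.83, miR-34a-5p 1.63, miR-141-3p 1.36 and miR-30b-5p 1.28. Smaller excesses were found for miR-30c-5p 1.20, miR-338-3p 1.13, miR-145-3p 1.12, miR-23b-3p 1.04, miR-27b-3p 1.02, miR-122-5p 1.003 and let-7a-3p 0.89. In the other direction the 12 h difference lay below that of the other hours for miR-10a-5p -2.72, miR-9-5p -2.39, miR-737-5p -2.33, miR-222a-3p -2.22, let-7f-3p -2.22, let-7e-5p -2.17, miR-456-3p -2.10, miR-19a-3p -1.66 and let-7j-5p -1.59. It was also lower for miR-222a-5p -1.54, miR-18a-3p -1.44, miR-138-5p -1.38, miR-216b-5p -1.35, miR-107a-5p -1.29, miR-128-3p -1.24, miR-194a-5p -1.17, let-7g-5p -1.09 and miR-30a-3p -1.06. The remaining values were miR-21-5p -0.98, miR-148-3p -0.95, miR-181b-5p -0.87, miR-10c-5p -0.84, miR-19b-3p -0.82, let-7a-5p -0.80, miR-101b-5p -0.72 and miR-30a-5p -0.72. After rescaling to the listed total the test no longer called miR-30a-5p, miR-148-3p, miR-30a-3p, miR-216b-5p and miR-138-5p (adjusted p 0.0537 to 0.161). The other named miRNAs given here kept an adjusted p under 0.05 on that scale. No set of 3 libraries was examined for a library that stands apart, since groups of 3 are too small for that test.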

How the results depend on the processing

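On the deposited scale 69 miRNAs were called in severe hypoxia against control at 12 h, and 54 to 72 under the other settings except one. With all 3 deposited values in every group 136 were called, 122 in the difference from the other hours and 133 in severe against moderate hypoxia, because averaged values then count as measurements. Leaving out 1 library gave 54 to 63, 41 to 51 and 40 to 70 calls in these comparisons. Severe against moderate hypoxia dropped to 41 calls on the scale of the listed total and 42 with scaling by the median ratio. The summed rpm differed by -128974 to -89412 rpm with 1 library left out, severe minus control. Same-numbered severe and control libraries deviated from their group means with r = 0.0075, 0.064 and -0.0065 (across 63, 96 and 123 miRNAs), so the numbers were not taken as pairs. With a replicate block the counts were 70, 58 and 77, and miR-122-5p was not called (adjusted p = 0.0813). Setting values that are no whole reads to missing, chosen after seeing the data, gave 70, 57 and 76 calls. Of the recomputed values of named miRNAs, 1020 kept their direction and side of the threshold, 46 were no longer called, 5 became called and 20 reversed. Leaving out a library with an averaged value of a miRNA removes no measurement of it, so its difference cannot move. Part of the 1020 was thus fixed in advance and overstates the stability. Of the miRNAs that reversed only miR-146a-5p was called, with -0.066 (without severe library 3) to 2.58 (without severe library 1). The ranges of the others with 1 library left out were -0.77 to 0.077 (miR-462-5p), -0.067 to 0.24 (miR-181a-5p), -0.48 to 0.20 (miR-22a-3p), -0.48 to 0.027 (miR-1388-3p), -0.75 to 0.20 (miR-23b-5p) and -0.11 to 0.36 (miR-27b-5p). They were -0.41 to 0.015 (miR-9-3p), -0.15 to 0.37 (let-7e-3p), -1.05 to 0.039 (miR-2188-5p) and -1.19 to 0.76 (miR-181a-3p). On the scale of the listed total the values were 0.039 for miR-22a-3p and 0.0255 for miR-181a-3p. Scaling by the median ratio gave 0.16 for miR-22a-3p, 0.069 for miR-1388-3p, 0.079 for miR-9-3p and 0.076 for miR-181a-3p. The cause of each reversal was not tested. Depth limits miRNAs under 10 rpm, which rest on few reads.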
